A study of Rattus norvegicus with 50 samples.

Results

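The taste receptor genes measured in this study are the transcript clusters whose annotated symbol begins with Tas1r or Tas2r and a number. They comprised 35 of the 15049 genes tested, 3 of the Tas1r family and 32 of the Tas2r family, and were chosen by name alone. RefSeq lists 38 protein-coding genes of these families in the rat, and the other 3 (Tas2r130, Tas2r102 and Tas2r145) were not analysed here.

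Gene expression had been measured with Affymetrix Rat Clariom S arrays in the hippocampus and in peripheral blood mononuclear cells (PBMC) of 25 male Wistar rats aged 3.5 months, with 1 array per animal and tissue. The metabolically obese, normal-weight rats (MONW, n = 8) ate a high-fat diet, in which fat gave 60% of the calories, for 11 weeks after weaning, in amounts matched in energy to the intake of the normal-weight rats, and had been given vehicle while suckling. The MONW-Lep rats (n = 9) had the same diet in the same way after oral leptin on postnatal days 1 to 20. The normal-weight rats (NW, n = 8), also given vehicle, ate freely of a diet in which fat gave 10%. The pups came from shared litters, and the litter of each array was not used here. PBMC are a mixture of lymphocytes, monocytes and adhering platelets, and the hippocampus was taken as a whole, so fewer cells of a type and less RNA per cell cannot be told apart in either tissue.

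Taste receptors are G protein-coupled receptors of taste bud cells. Tas1r3 pairs with Tas1r1 to form the umami receptor and with Tas1r2 to form the sweet receptor, whereas each Tas2r gene encodes a bitter receptor, usually in a single exon. In taste cells all of them signal through the G protein gustducin, phospholipase C-beta2 and the cation channel Trpm5, and members of both families are also known from cells outside the mouth, such as the chemosensory tuft cells of the gut and airway.

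On the rat genome (RefSeq, GRCr8), 30 of the 35 genes lie on chromosome 4. A group of 20 Tas2r genes spans positions 167031081 to 168109809, another 8 lie between 70242964 and 72301374, and Tas2r7l and Tas2r118 stand alone on the same chromosome. Tas2r119, the rat counterpart of human TAS2R1, is the only member on chromosome 2, Tas2r134 the only one on chromosome 3, and the 3 Tas1r genes are on chromosome 5. In 31 of the 35 the annotated gene length is a multiple of 3, and in 30 of the 33 members with a promoter entry the annotated start is an ATG, so that for most Tas2r genes the annotation holds the coding length and the stretch upstream of it precedes the start codon.

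Because the group comparisons below turn on Tas2r119, its sequence around the annotated start is given here (chr2:84948239-84948538, plus strand, 250 bases before the start and 50 after it, from RefSeq on GRCr8). The first capitals mark ATGCAAA, the octamer motif ATGCAAAT without its last base, which begins 246 bases before the start, and the second capitals mark the start codon. The full octamer is absent from this stretch. The shortened form was found in 39.4% of the members with a promoter entry and in 4.68% of all rat promoters. Among promoters at or above the members' median of A and T it was found in 9.15%. Whether any protein binds it was not tested.

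Tas2r119: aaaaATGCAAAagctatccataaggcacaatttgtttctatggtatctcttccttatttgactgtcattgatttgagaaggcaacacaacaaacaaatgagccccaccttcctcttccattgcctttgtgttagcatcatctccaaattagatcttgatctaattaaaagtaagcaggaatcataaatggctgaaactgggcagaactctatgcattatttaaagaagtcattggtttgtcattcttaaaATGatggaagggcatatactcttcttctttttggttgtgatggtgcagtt

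The octamer is the DNA motif of POU-domain proteins, one of which, Pou2f3, is needed in mice for the sweet, umami and bitter cells of the taste bud. Among 12 short motifs searched on both strands in the 33 matched members, ATGCAAAT itself was found in 9 (27.3%), against 1.78% of 33469 rat promoters of the same 300 bases. In 30 of the 33 members the annotated start is the start codon, and how often this holds for all promoters was not counted. The shares given here may therefore compare unlike stretches. The members' windows were rich in A and T (median 61.7%, all promoters 48.3%), and of the 3149 promoters at or above the members' median 3.59% held the octamer. It lay in 6 of the 8 genes of the middle group on chromosome 4, in both genes that stand alone there, and in 1 of the 18 matched genes of the distal group, and it began 124 to 250 bases before the start. In all 9 it read ATTTGCAT on the strand of the gene, as did 275 of the 623 octamer matches over all promoters. The TATA box motif TATAAA was found in 11 of 33 members (33.3%), 10 of them in the distal group, against 14.2% of all promoters and 45.2% of those at or above the members' median of A and T. The stretches around the 9 octamers are given with the octamer in capitals, to show its shared direction and its changing neighbours. That of Tas2r136 begins at the edge of the window. For Tas2r137 the start in the promoter entry lies inside the annotated gene span (chr4:70242964-70256215), and so does its stretch (chr4:70250848-70250877). They are descriptions of the genome, and the arrays bear on none of them.

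Tas2r7l: caaatgtttggATTTGCATtctcagtttcc

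Tas2r118: gagttaggaggATTTGCATctgcaaagagg

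Tas2r137: cactgggcattATTTGCATctcaacaaaga

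Tas2r108: atccttgaacgATTTGCATctcagtaaaag

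Tas2r144: atcctttcataATTTGCATttcaagcctct

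Tas2r143: atctgggagtgATTTGCATgtctagggaga

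Tas2r135: gcctcggcagtATTTGCATctattctgagg

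Tas2r126: gcccaggaaatATTTGCATcatatctgagc

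Tas2r136: ATTTGCATgcttgcaaatg

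Each member was first set against the 1153 negative control clusters of the same array, whose sequences stand for background hybridization. A gene was called above background when its median over the 25 arrays of a tissue exceeded the 95th percentile of these controls. None of the 35 taste receptor genes did so in the hippocampus, where 25.8% of all genes tested did, nor in PBMC, where 14.8% did. Not 1 of the 25 arrays of either tissue held any member above its own 95th percentile. In the hippocampus 31 of the 35 members lay below the median of the negative controls as well (19% of all genes), and in PBMC all 35 (38.7% of all genes). A value at this height is a bound, which does not show that a transcript is missing, and a value of one cluster cannot be ranked against that of another because it also depends on the probes. Among the 23 background probe sets of the array, mean values in the hippocampus rose with G and C bases, from 1.88 for the set of 3 such bases to 7.93 for that of 23. They were lower again for the sets of 24 (7.71) and 25 (7.25).

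By the markers of their main cell types, the arrays read the tissues as the labels say. Of 9 hippocampal neuron markers 8 were above the negative controls in the hippocampus and 0 in PBMC, while all 6 T cell and both measured B cell markers were above them in PBMC and none in the hippocampus. Of 11 markers of taste and other chemosensory cells only Dclk1 and Sox2, both of which are also brain genes, passed in the hippocampus and none in PBMC. Hippocampal MONW replicate 7 stood apart from the other hippocampal arrays, with a median correlation of 0.978 with the others and a mean of 9.04 over 7 striatal markers, where the other 24 arrays lay between 6.72 and 6.99. The hippocampal calls that include MONW arrays are therefore also given without it. Choroid plexus markers varied widely between hippocampal arrays in every group, and Kl and Ttr among them were above the negative controls. The mean over 5 such markers ran from 6.23 to 9.88 in MONW, from 6.55 to 9.56 in MONW-Lep and from 6.40 to 9.96 in NW. Their part in the hippocampal results was not tested. In PBMC 4 arrays (NW replicate 6, MONW replicate 7 and MONW-Lep replicates 5 and 8) stood apart by few platelet transcripts, with a mean of 7.38 to 7.85 over 6 platelet markers, where the other 21 lay between 9.27 and 10.91, and PBMC calls are also given without them. These 4 arrays also had the lowest monocyte means (9.12 to 9.67) and the highest erythroid means (10.80 to 11.22) of their groups. NW replicate 6, MONW replicate 7 and MONW-Lep replicate 5 had the lowest B cell means of their groups. Leaving them out therefore changes more than the platelet content.

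**Figure D1:**
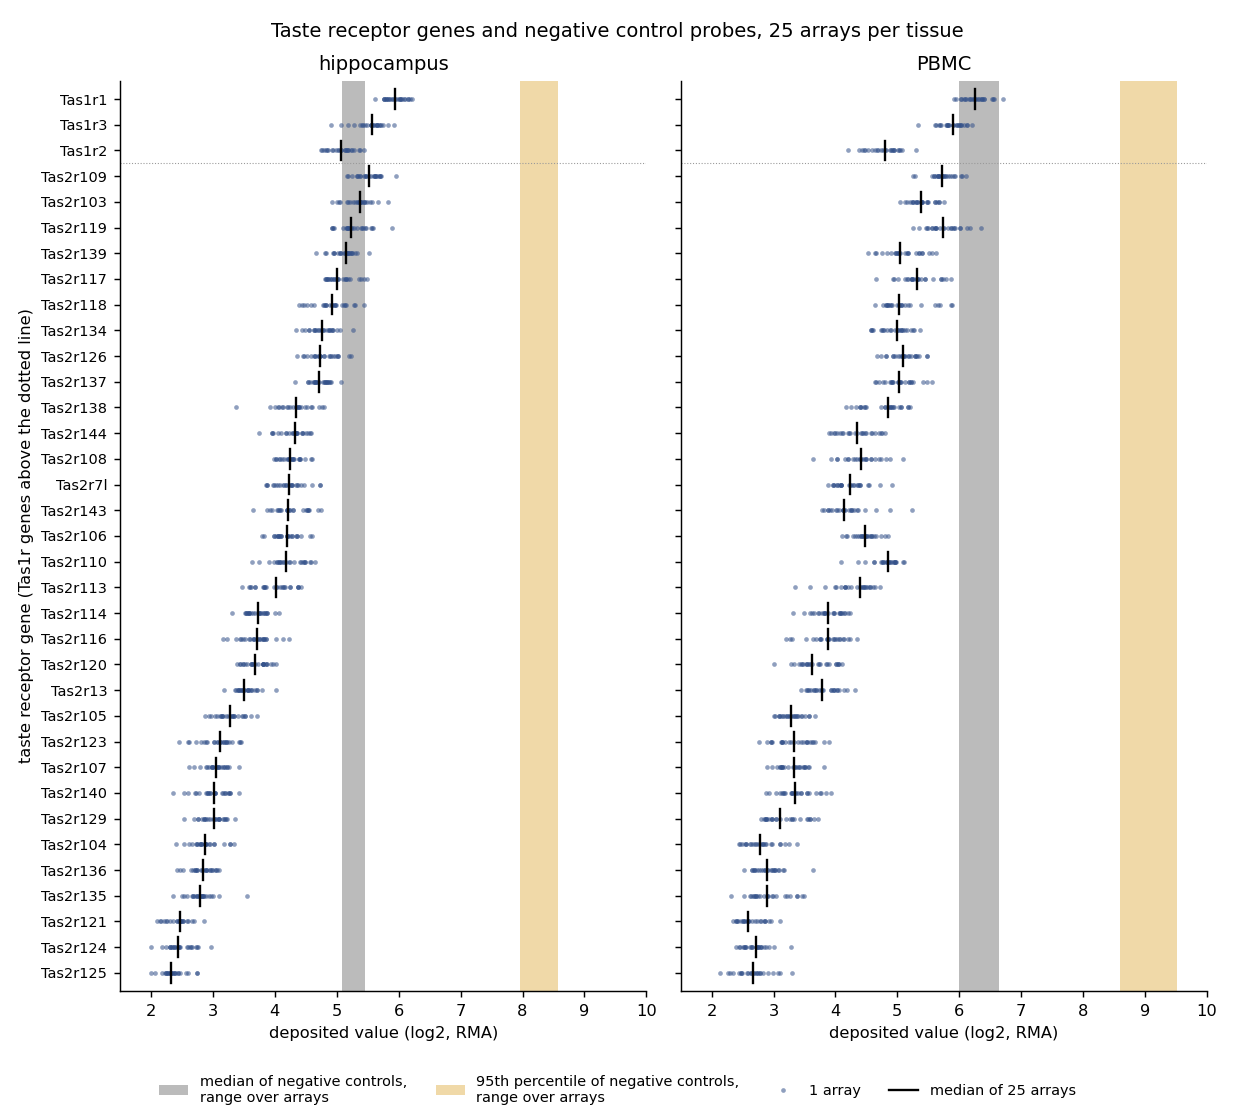
Deposited log2 values of the 35 taste receptor genes in the 25 hippocampal arrays (left) and the 25 PBMC arrays (right). Each point is 1 array, the black tick is the median, the grey band spans the array medians of the negative controls and the tan band their 95th percentiles, and no point of any member reaches the tan band in either tissue.

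Of the sweet and umami receptor genes, Tas1r1, the umami partner, measured 5.61 at its lowest, 5.95 at the median and 6.21 at its highest in the hippocampus, and exceeded the array's own negative control median in 25 of 25 arrays. In PBMC it ran from 5.91 over 6.26 to 6.70 and exceeded that median in 10 of 25. Tas1r3, the shared subunit, did so in 22 of 25 hippocampal arrays (4.90 at the lowest, 5.57 at the median, 5.92 at the highest) and in 2 of 25 PBMC arrays. Tas1r2, the sweet partner, did so in 4 of 25 hippocampal arrays (median 5.07) and in 0 of 25 PBMC arrays (median 4.81). No Tas1r gene passed the threshold in any of the 6 group comparisons. Tas1r1 differed by -0.09 on the log2 scale between MONW and NW hippocampus (95% interval -0.25 to 0.08), Tas1r2 by -0.05 and Tas1r3 by -0.02.

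Of the 32 bitter receptor genes, Tas2r109 exceeded the negative control median in 19 of 25 hippocampal arrays, Tas2r103 in 13 and Tas2r119 in 10, and no Tas2r gene did so in any PBMC array. Over the 35 genes the medians of the tissues ran in parallel (Pearson's r = 0.982, Spearman's rho = 0.970, given as a description across genes, which share probes in both tissues and are not independent). The mean over all 35 genes differed little between arrays. It lay between 3.93 and 4.15 in MONW, between 3.95 and 4.12 in MONW-Lep and between 3.99 and 4.12 in NW hippocampus, and between 4.11 and 4.32 in MONW, between 4.14 and 4.31 in MONW-Lep and between 4.12 and 4.36 in NW PBMC. All 3 groups overlapped in both tissues.

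The first comparison asked how the high-fat diet was reflected in these genes. In the hippocampus 3 of the 35 members passed an unadjusted p of 0.05 in limma between MONW and NW, 1 higher and 2 lower in MONW (8.57%, against 3.08% of all genes tested, 1.63% higher and 1.45% lower). The median difference of the 35 members was -0.02 on the log2 scale and that of all genes 0.00. None passed a Benjamini-Hochberg adjusted p of 0.05, and the smallest adjusted p of a member was 0.824 (limma). No gene of the 15049 passed it in any of the 6 comparisons, while 352 to 715 passed the unadjusted threshold.

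Tas2r119 was higher in the hippocampus of MONW rats. Its values ran from 5.24 over a median of 5.46 to 5.89 in MONW and from 4.93 over 5.17 to 5.29 in NW, with 7 of 8 MONW arrays above every NW array. Only MONW replicate 1, at 5.24, fell within the NW range. The difference was 0.36 ± 0.09 on the log2 scale (SE, limma, p = 0.000384, exact two-sided permutation test, p = 0.000311). Since neither group was above background, it is a difference between measured values, and no fold is given for any member. Its highest value belonged to MONW replicate 7, the array that stood apart, and without that array the difference was 0.31 (limma, p = 0.00111, exact permutation test, p = 0.000466).

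The other members past the threshold were lower in MONW and belong to the distal group on chromosome 4. Tas2r106 (chr4:167044628-167045551) ran from 3.79 over 4.05 to 4.19 in MONW and from 3.98 over 4.28 to 4.57 in NW, and all 8 MONW arrays lay below the NW median. Its difference was -0.26 ± 0.09 (SE, limma, p = 0.00554, exact permutation test, p = 0.00715). Tas2r13 (chr4:167810315-167811259) ran from 3.35 over 3.48 to 3.56 in MONW and from 3.38 over 3.66 to 4.02 in NW, where the MONW arrays lay in a narrower band (SD 0.065, against 0.199 in NW). Its difference was -0.19 ± 0.08 (SE, limma, p = 0.0184, exact permutation test, p = 0.0160). The call for Tas2r13 was lost in limma without NW replicate 6 (difference -0.14) and when each array was set relative to its negative control median. Without MONW replicate 7 the differences were -0.27 for Tas2r106 and -0.19 for Tas2r13, both past the threshold, and the count of members was 4, with Tas2r124 added (11.4%, against 3.28% of all genes tested). In the same comparison the striatal gene Adora2a was higher and the B cell gene Cd79b lower in MONW. Neither passed without that array, and their part was not tested.

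**Figure D2:**
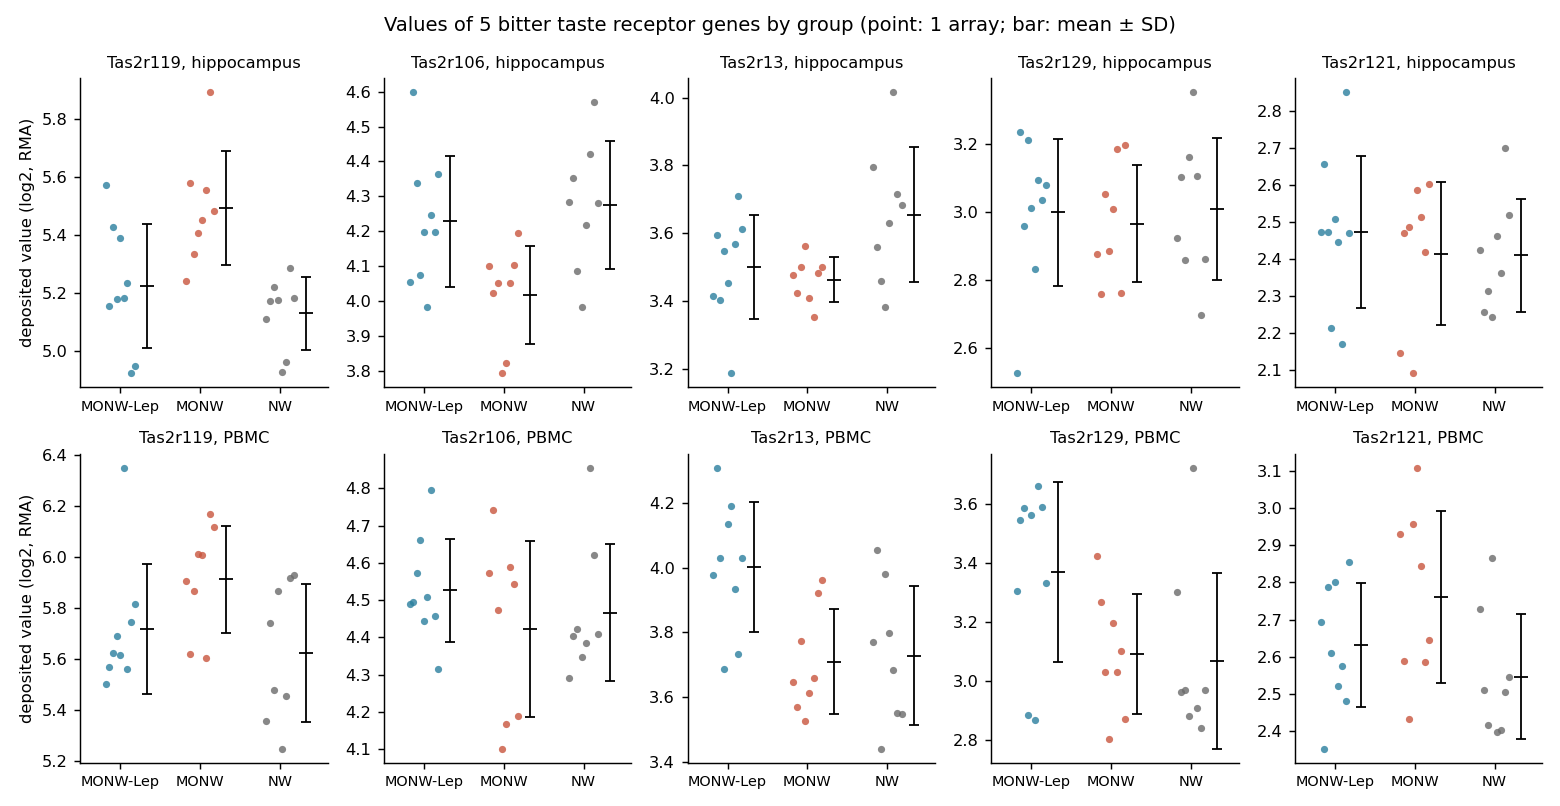
Deposited log2 values of the 5 Tas2r genes past the threshold in any comparison, by group (MONW-Lep, MONW, NW), in the hippocampus (top) and PBMC (bottom), where each point is 1 array and the bar beside it the mean ± SD (n = 9, 8 and 8). The mean of Tas2r119 is highest in MONW in both tissues, and that of Tas2r13 is highest in NW in the hippocampus and in MONW-Lep in PBMC.

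In PBMC 2 of the 35 members passed between MONW and NW, both higher in MONW (5.71%, against 3% of all genes tested, 1.63% higher and 1.38% lower). Tas2r119 was one of them. It ran from 5.60 over 5.96 to 6.17 in MONW and from 5.25 over 5.61 to 5.93 in NW, and 4 of 8 MONW arrays lay above every NW array. The difference was 0.29 ± 0.12 (SE, limma, p = 0.0232, exact permutation test, p = 0.0359, limma adjusted p = 1.00), and all groups of this gene lay below the median of the negative controls on the same arrays. Leaving out NW replicate 1 or 5 or MONW replicate 7 ended the call (differences of 0.25, 0.23 and 0.25), as did leaving out the 4 arrays of few platelet transcripts (difference 0.23). Tas2r121 (chr4:167718831-167719748) was the other, with 2.43 to 3.11 in MONW (median 2.75) and 2.40 to 2.87 in NW (median 2.51). It differed by 0.22 ± 0.10 (SE, limma, p = 0.0333), a call that the exact permutation test did not make (p = 0.0535) and that 7 of 25 single omissions ended (NW replicates 3, 5 and 6 and MONW replicates 1, 4, 5 and 6). Without those 4 arrays Tas2r121 alone passed (1 of 35, against 5.77% of all genes tested). The 6 platelet markers all had higher means in MONW, none past the threshold, with a median difference of 0.37, and their mean ran between 7.85 and 10.91 in MONW and between 7.81 and 10.82 in NW. Their part in the result was not tested.

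Tas2r119 was the single member past the threshold in the same direction in both tissues (1 of 35), against 8 of the 15049 genes (0.0532%). Another 7 of the 15049 genes, and 0 of the 35 members, passed in both tissues in opposite directions. Over all genes, the same direction was thus about as frequent as the opposite one. Tas2r119 is also the member that the study names, so that this count is a description and not an independent test, and its PBMC call did not hold without the 4 arrays of few platelet transcripts. No relation between the tissues was detected for this gene beyond the groups. Over the 25 animals, after removal of the group means, hippocampal and PBMC values had Pearson's r = 0.063 (permutation p = 0.765) and Spearman's rho = 0.037 (permutation p = 0.860), and r = 0.048 without the 2 animals farthest from the median. The difference between MONW and NW did not differ detectably between the tissues either, with an interaction of -0.03 ± 0.17 on the log2 scale (SE, limma, p = 0.865, exact permutation test, p = 0.866).

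The second comparison set MONW-Lep against NW. In the hippocampus 1 of the 35 members passed and was lower in MONW-Lep (2.86%, against 2.34% of all genes tested, 0.957% higher and 1.38% lower), and the median difference of the members was -0.05, against 0.00 for all genes. Tas2r13 ran from 3.19 over 3.55 to 3.71 in MONW-Lep, beside the NW values above, and differed by -0.15 ± 0.07 (SE, limma, p = 0.0459, exact permutation test, p = 0.0900). This call was lost in 6 of 8 alternatives, the fit with the replicate number as a block among them. Tas2r119 lay between 4.92 and 5.57 in MONW-Lep (median 5.18) and differed from NW by 0.09 (95% interval -0.08 to 0.27), and Tas2r106 differed by -0.05 (95% interval -0.22 to 0.12), neither of which passed.

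In PBMC 2 of the 35 members passed between MONW-Lep and NW, both higher in MONW-Lep (5.71%, against 4.75% of all genes tested, 2.36% higher and 2.39% lower). Tas2r13 ran from 3.69 over 4.03 to 4.31 in MONW-Lep and from 3.44 over 3.73 to 4.05 in NW, and 8 of 9 MONW-Lep arrays lay above the NW median. The difference was 0.27 ± 0.10 (SE, limma, p = 0.00755, exact permutation test, p = 0.0183). Tas2r129 (chr4:167876054-167877016) ran from 2.87 over 3.54 to 3.66 in MONW-Lep and from 2.84 over 2.97 to 3.72 in NW. Its highest value was that of an NW array, and the difference of 0.30 ± 0.13 (SE, limma, p = 0.0253) did not pass the exact permutation test (p = 0.0601) or, in limma, the omission of NW replicate 7 or of MONW-Lep replicate 7. Without the 4 arrays of few platelet transcripts Tas2r13 alone passed (1 of 35, against 6.27% of all genes tested), at 0.29, and Tas2r129 differed by 0.22. Blood cell markers moved in the same comparison, with Cd68 and Lyz2 of the monocyte list past the threshold as lower and Cd3d of the T cell list as higher in MONW-Lep. The mean over 5 monocyte markers ran between 9.28 and 10.32 in MONW-Lep and between 9.67 and 10.41 in NW, and that over 6 T cell markers between 10.18 and 10.47 in MONW-Lep and between 9.98 and 10.36 in NW. Their part in the result was not tested.

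For Tas2r13 the difference between MONW-Lep and NW was in opposite directions in the tissues, lower in the hippocampus and higher in PBMC. The interaction was -0.49 ± 0.17 (SE, limma on within-animal differences, p = 0.00680, adjusted p = 1.00, exact permutation test, p = 0.0273). For Tas2r129 it was -0.37 ± 0.17 (SE, limma, p = 0.0398, exact permutation test, p = 0.0246), with a difference of -0.01 in the hippocampus alone. These were the 2 members of 35 past the threshold for this interaction (1.86% of all genes tested), and 0 of 35 passed it for MONW versus NW (2.82%) or MONW-Lep versus MONW (1.16%).

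The third comparison, MONW-Lep against MONW, asked what leptin in the suckling period changed under the same diet. It shares the MONW arrays with the first comparison. In the hippocampus 2 of the 35 members passed, 1 higher and 1 lower in MONW-Lep (5.71%, against 3.1% of all genes tested, 1.38% higher and 1.72% lower), and they were Tas2r119 and Tas2r106. Tas2r119 was lower in MONW-Lep, with a difference of -0.27 ± 0.09 (SE, limma, p = 0.00467, exact permutation test, p = 0.0155), with 6 of 9 MONW-Lep arrays below every MONW array. Without MONW replicate 7 the difference was -0.21 (limma, p = 0.0151, exact permutation test, p = 0.0355). Tas2r106 ran from 3.98 over 4.20 to 4.60 in MONW-Lep, with 6 of 9 arrays above every MONW array, and differed from MONW by 0.21 ± 0.08 (SE, limma, p = 0.0171, exact permutation test, p = 0.0174). Without MONW replicate 7 the Tas2r106 difference was 0.22. Of the marker lists, the platelet genes Pf4 and Ppbp were past the threshold as higher in MONW-Lep, with a mean over 6 platelet markers of 6.09 to 6.42 in MONW-Lep and 5.96 to 6.14 in MONW, none of them above the negative controls in this tissue. The B cell gene Cd79b and Gfi1b, of the chemosensory list, were higher and the striatal gene Gpr6 lower. Without MONW replicate 7, Gpr6 and Ppbp did not pass, and the part of these markers in the result was not tested.

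In PBMC the 2 members past the threshold between MONW-Lep and MONW were again Tas2r13 and Tas2r129, both higher in MONW-Lep (5.71%, against 2.45% of all genes tested, 1.34% higher and 1.11% lower). Tas2r13 ran from 3.53 over 3.65 to 3.96 in MONW, with 6 of the 9 MONW-Lep arrays above every MONW array, and differed by 0.29 ± 0.10 (SE, limma, p = 0.00463, exact permutation test, p = 0.00679). Tas2r129 ran from 2.80 over 3.07 to 3.42 in MONW and differed by 0.28 ± 0.13 (SE, limma, p = 0.0369, exact permutation test, p = 0.0470). The Tas2r129 call ended in 9 of 25 single omissions (MONW replicates 3, 4, 6 and 8 and MONW-Lep replicates 2, 3, 5, 7 and 8) and on values relative to the negative controls. Without the 4 arrays of few platelet transcripts Tas2r13 alone passed (1 of 35, against 2.43% of all genes tested), at 0.34, and Tas2r129 differed by 0.22. The 6 platelet markers all had lower means in MONW-Lep than in MONW, none past the threshold, with a median difference of -0.48, and their part in the result was not tested. Tas2r119 in PBMC differed from MONW by -0.19 (95% interval -0.43 to 0.05), which did not pass (limma, p = 0.108, exact permutation test, p = 0.112).

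**Figure D3:**
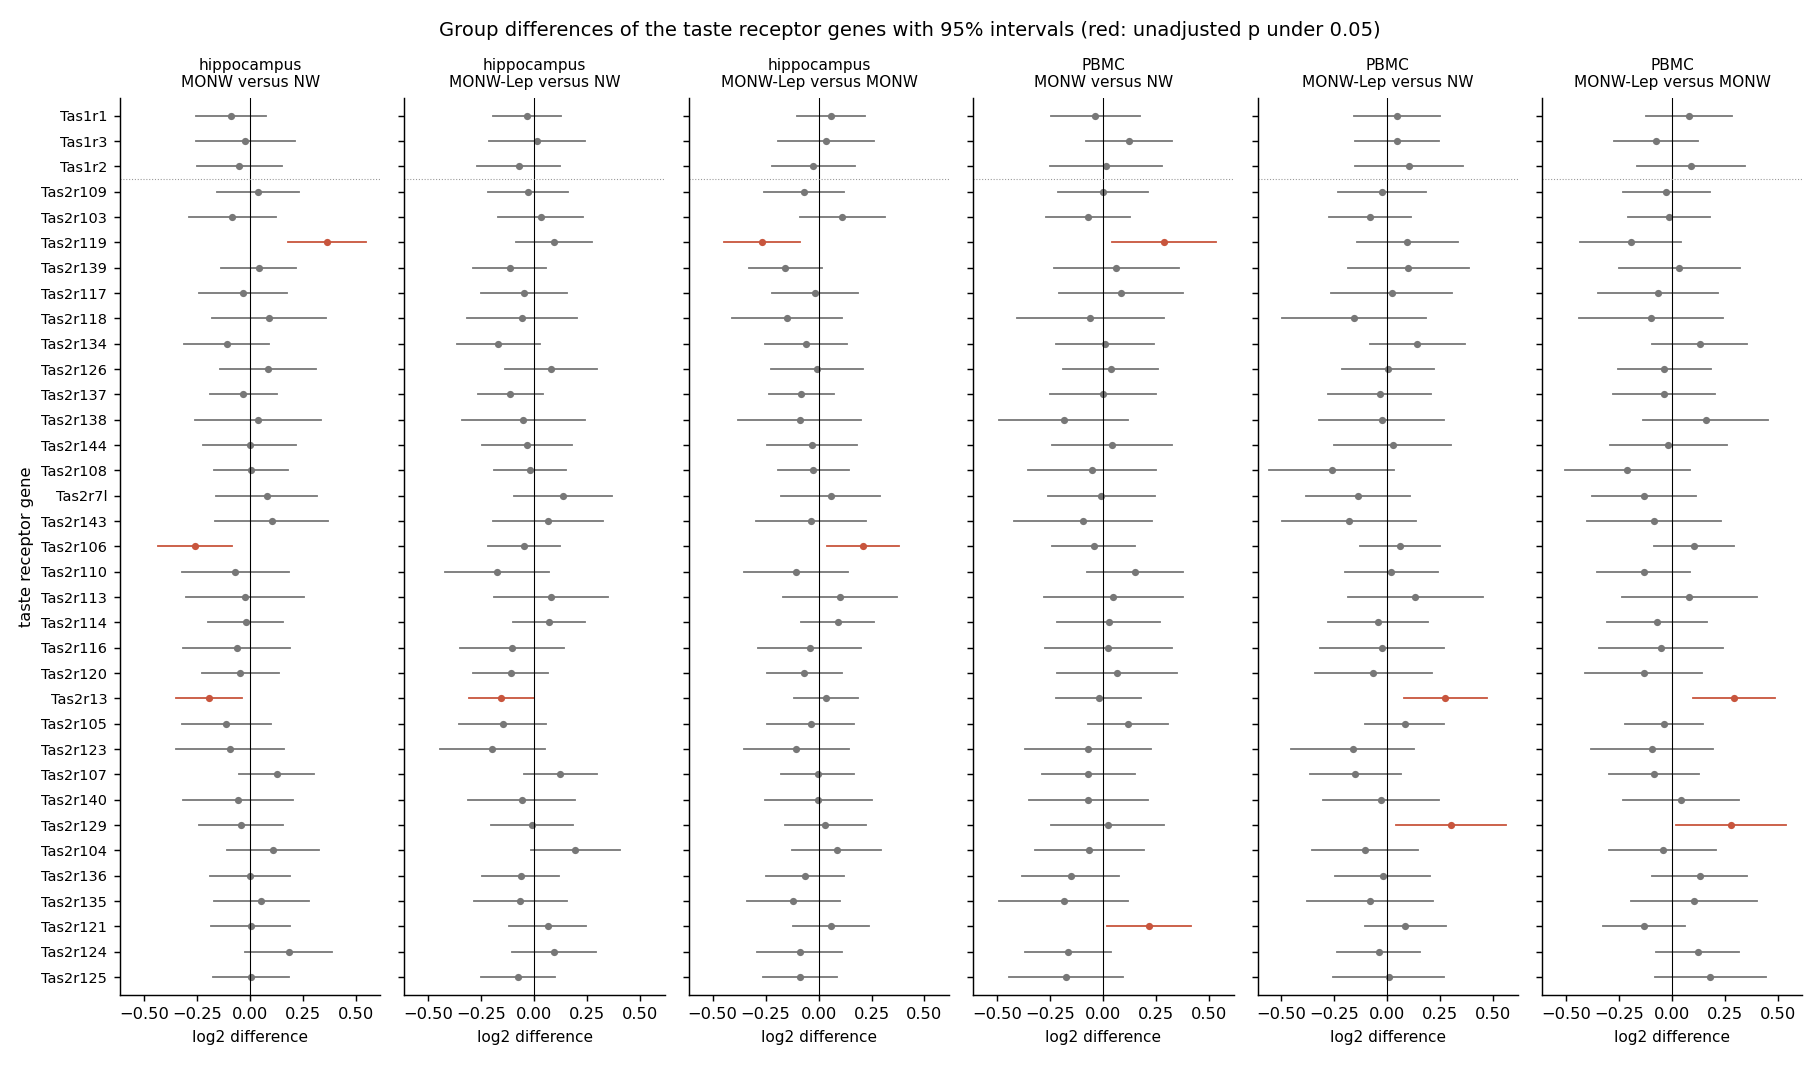
Log2 differences with 95% intervals (limma) of the 35 taste receptor genes in the 3 comparisons in the hippocampus (left 3 panels) and PBMC (right 3 panels), with an unadjusted p under 0.05 in red. Between 1 and 3 members are red in each panel, 12 marks on 5 genes in all, and the remaining intervals include 0.

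The 12 calls thus fell on 5 genes, all of the Tas2r family, and 9 of them also passed the exact permutation test. In no comparison did the groups of any member fail to overlap (0 of 35, against 0.0133% of all genes tested for MONW versus NW in PBMC, 0% for MONW-Lep versus MONW in the hippocampus and 0.00664% for each of the others). The precision was similar throughout. The median half-width of the members' 95% intervals was 0.20 to 0.21 in the hippocampus and 0.25 in PBMC on the log2 scale, and among the members that did not pass, the largest difference in either direction was 0.26. The spread within groups was wider for the members than for genes in general, with a median residual SD of 0.209 in the hippocampus and 0.255 in PBMC, against 0.176 and 0.216 over all genes. This was not particular to the taste receptors. In the hippocampus the median was 0.212 for olfactory, 0.224 for vomeronasal type 1, 0.214 for vomeronasal type 2 and 0.187 for trace amine receptor genes. In PBMC these families had 0.243, 0.239, 0.247 and 0.239.

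The other families of chemosensory receptors gave a like picture of low values. None of 1057 olfactory receptor genes, 45 vomeronasal type 1, 53 vomeronasal type 2 or 17 trace amine receptor genes had a median above the 95th percentile of the negative controls in either tissue. Between MONW and NW, 52 olfactory receptor genes passed the threshold in the hippocampus (4.92%), 26 in each direction, as did 6 of 53 vomeronasal type 2 genes (11.3%), 0 of 45 vomeronasal type 1 genes and 0 of 17 trace amine receptor genes.

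Genes that act downstream of or beside taste receptors, called signalling genes here for short, were read from a list of 40, of which 35 were measured. In the hippocampus 7 were above the negative controls, namely Entpd2, Gnai2, Gnb1, Kcnk1, Pde1a, Prkaca and Snap25, and in PBMC 3, namely Gnai2, Gnb1 and Prkaca. Those 7 are G protein subunits, a potassium channel and enzymes of wide expression, together with the synaptic protein Snap25. The defining genes of the pathway were not above them in either tissue. Gnat3, the alpha subunit of gustducin, had a median of 2.70 in the hippocampus and 2.74 in PBMC, and Trpm5, the channel at the end of the cascade, 5.93 and 6.12.

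Between MONW and NW 1 of the 35 measured signalling genes passed in the hippocampus, lower in MONW, and 0 in PBMC. It was Slc5a1, the intestinal sodium-glucose cotransporter also found in sweet-sensing cells, which differed by -0.32 ± 0.15 (SE, limma, p = 0.0451, exact permutation test, p = 0.0437), and by -0.33 without MONW replicate 7, past the threshold. Slc5a1 was also the only one between MONW-Lep and NW hippocampus, at -0.47 ± 0.15 (SE, limma, p = 0.00306, exact permutation test, p = 0.0227), and its median of 4.23 lay below the negative control level. Between MONW-Lep and MONW hippocampus Adcy8, an adenylyl cyclase, was higher by 0.23 ± 0.10 (SE, limma, p = 0.0308, exact permutation test, p = 0.0162) and Trpm4, a cation channel related to Trpm5, differed by -0.17 ± 0.07 (SE, limma, p = 0.0276, exact permutation test, p = 0.0480). Without MONW replicate 7 Adcy8 passed at 0.26 and Trpm4, at -0.13, did not. In PBMC P2rx2, an ATP receptor subunit of taste nerves, was higher in MONW-Lep than in NW by 0.25 ± 0.11 (SE, limma, p = 0.0256, exact permutation test, p = 0.0580), and none passed between MONW-Lep and MONW. Each count is 1 or 2 of 35 genes, to be read beside the shares of all genes given above, and no adjusted p passed.

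Hippocampus and PBMC were last compared within animals, where the direction depended on the scale. The tissues do not share one distribution of values, and their negative controls differ, with array medians of 5.08 to 5.45 in the hippocampus and of up to 6.63 in PBMC, where every array lay above the highest hippocampal one. Relative to each array's negative control median, all 35 members were higher in the hippocampus (95.8% of all genes passed, 85.7% higher and 10.2% lower). The threshold here was an adjusted p under 0.05 (limma). The median difference was 0.76 for the members and 0.88 for all genes. On the deposited values 1 member was higher and 24 were lower (84.3% of all genes passed, 36.5% higher and 47.9% lower). The median there was -0.22, against -0.10 for all genes. Relative to the median of the background sets 15 were higher and 2 lower (59.7% of all genes higher and 23.4% lower), with a median of 0.11, against 0.24 for all genes. On none of these scales did the median of the members exceed that of all genes.

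Tas1r2 was the member with the highest difference, at 1.29 ± 0.08 relative to the negative controls (SE, limma, higher in 25 of 25 animals) and 0.31 ± 0.07 on the deposited values. The order of the members is the same on each scale by construction. Tas2r104 (1.04) and Tas2r143 (1.01) followed relative to the negative controls. At the other end stood Tas2r110 (0.40), Tas2r119 (0.51) and Tas2r138 (0.54), which on the deposited values were at -0.58, -0.47 and -0.44, lower in the hippocampus than in PBMC. All of these are differences between values at or below the level of the negative controls in both tissues.

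**Figure D4:**
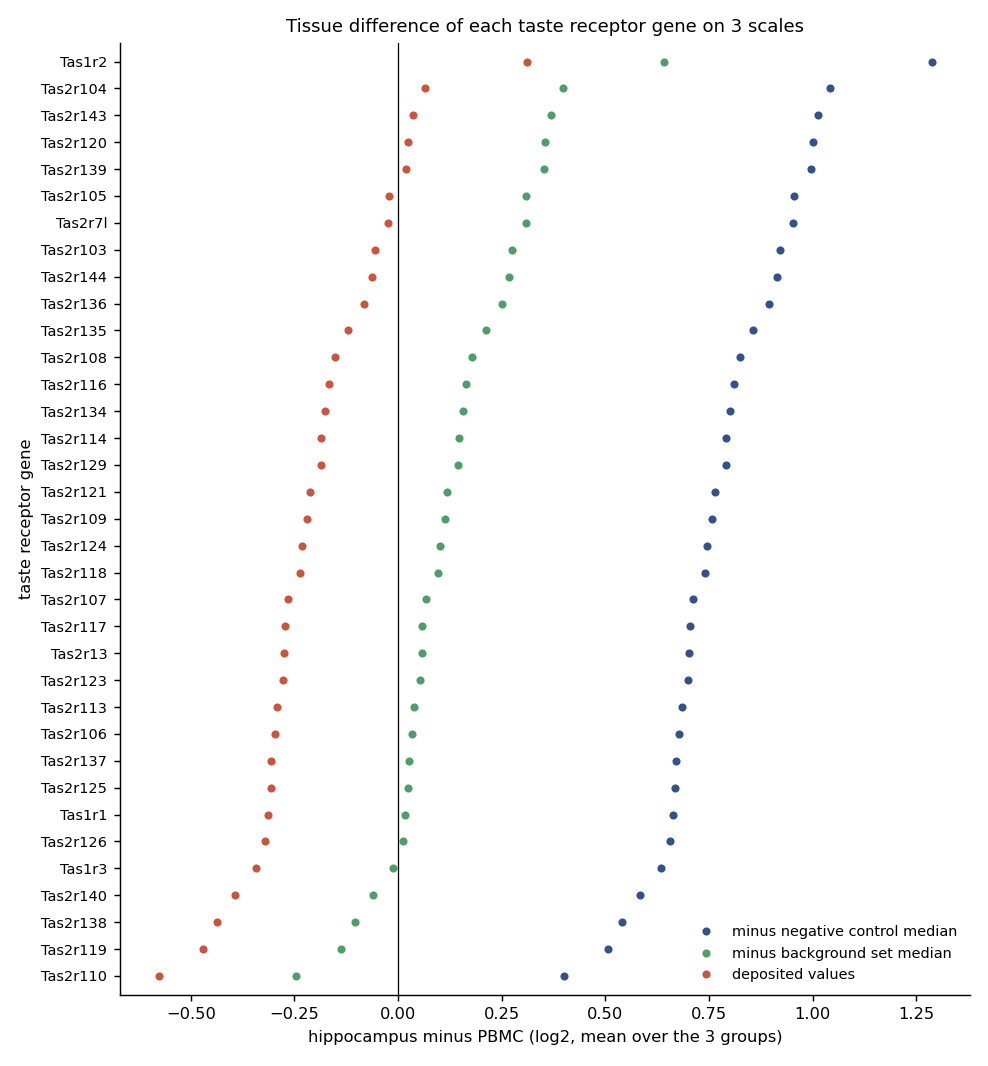
Hippocampus minus PBMC on the log2 scale for each of the 35 taste receptor genes, relative to the negative control median of each array (blue), relative to the median of the background sets (green) and on the deposited values (red). Each scale shifts all genes by the same amount, so that the order of the genes stays while the sign of most changes. Tas1r2, Tas2r104, Tas2r143, Tas2r120 and Tas2r139 are above 0 on all 3 scales.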

How the data were processed

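The deposited values are log2 expression values per transcript cluster that the authors made with RMA (background correction, quantile normalization and probe summary). R 4.0.4 and limma stand in the submitters' processing notes, and no source used here says whether the tissues were normalized together. Groups came from the sample titles. Of 24871 clusters, the 15049 with 1 annotated symbol were fitted per tissue with limma 3.58.1 in R 4.3.3 (3 groups jointly, no covariates, 95% intervals from the moderated fit). Genes with an unadjusted p below 0.05 count as past the threshold, which follows the study's methods, and Benjamini-Hochberg adjusted values cover all genes. Exact two-sided permutation tests (12870 or 24310 regroupings) were run for named genes, those of the interactions, of the signalling genes and without single arrays being added after seeing the data. No pair of arrays was identical (0 of 300 per tissue). The fit was tested on simulated data. P-values measure the spread between animals, some of which may be littermates, and the number of arrays limits the precision.

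Background was the 1153 negative control clusters. Tissue differences were fitted on values minus each array's negative control median, within animals matched by group and number in the titles. That these are the same animals is assumed. The matched arrays correlated at a median of 0.014 after removal of group means, and 6 of 25 correlated best with their own number. Promoter windows are from RefSeq (GRCr8), matched by symbol for 33 of 35 members, all but Tas2r103 and Tas2r114. Probe sequences were not used here, and whether probes of the similar Tas2r genes hybridize with each other was not tested. The genes named are those past the threshold in any comparison, the Tas1r genes, Tas2r119, the extremes of the tissue difference and, of the signalling list, the 4 with the smallest p and those above background. Gnat3, Trpm5, Tas2r109, Tas2r103 and Tas2r124 were named after their values were seen. The members and all lists were chosen with earlier results of these data known.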

Additional observations from a re-analysis of the deposited data

Results flagged for a closer look

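Of 72 groups of arrays examined for 12 named genes, 4 held an array far from the others by Dixon's criterion, which by chance marks about 1 group in 20. Tas2r119 in PBMC had a value of 6.35 in MONW-Lep replicate 6, where the next of that group was 5.82. Tas1r1 in the hippocampus had 6.19 in MONW replicate 6 (next 5.98). Tas1r2 in PBMC had 5.30 in NW replicate 5 (next 4.81), and Tas2r143 in PBMC had 5.23 in NW replicate 6 (next 4.48).

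The difference between MONW-Lep and NW differed between the tissues for 2 of the 35 members by the interaction test of limma (1.86% of all genes tested passed). For Tas2r13 the interaction was -0.49 on the log2 scale (p = 0.00680, exact permutation test, p = 0.0273), lower in the hippocampus and higher in PBMC, and 5 alternatives and all 25 omissions of 1 animal kept it past the threshold. For Tas2r129 it was -0.37 (p = 0.0398, exact permutation test, p = 0.0246), and it was lost in limma with all 50 arrays quantile-normalized together, relative to the background sets, with unpaired arrays, without the 4 animals whose PBMC arrays held few platelet transcripts and without 9 of the 25 animals in turn (NW replicates 4, 5, 6 and 8, MONW-Lep replicates 1, 2, 3, 5 and 7).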

How the results depend on the processing

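The counts of members past the threshold were recomputed under 8 alternatives in each tissue and comparison and with each array left out. A filter to genes with a group mean above the 95th percentile of the negative controls left 0 of the 35 members, so it gave no value. For MONW-Lep versus NW hippocampus the count of 1 became 0 when the values were quantile-normalized again, taken relative to the negative controls, fitted with a variance trend and robust moderation, fitted with only those groups or tested by exact permutation, and 2 with the replicate number as a block, Tas2r13 not among them. Whether the numbers pair animals of different groups is not known. Correlations of same-numbered arrays ran from -0.43 to 0.45, and their medians from 0.015 to 0.17 over the 6 comparisons. A shared litter or batch behind the numbers was not tested. The block moved no other count by over 1.5 times. By exact permutation the PBMC counts were 1 for MONW versus NW and 1 for MONW-Lep versus NW, and relative to the negative controls the count for MONW-Lep versus MONW in PBMC was 1. A further alternative, chosen after seeing the data, left out the 4 PBMC arrays of few platelet transcripts. Each PBMC count was then 1, against 5.77% of all genes tested for MONW versus NW, 6.27% for MONW-Lep versus NW and 2.43% for MONW-Lep versus MONW. The MONW versus NW interaction count was 1 without them. For the counts under the 8 alternatives no share of all genes was computed. Tas2r119 and Tas2r106 kept their hippocampal calls under all 8 alternatives and all 25 omissions, and the cause of the other changes was not tested. With 1 array left out, the counts ran from 2 to 4 (MONW versus NW), 0 to 3 (MONW-Lep versus NW) and 2 to 3 (MONW-Lep versus MONW) in the hippocampus, and from 1 to 2, 1 to 3 and 1 to 3 in PBMC. The MONW-Lep versus NW hippocampal call for Tas2r13 was lost without any 1 of 11 arrays (NW replicates 1, 5, 6, 7 and 8, MONW replicates 1 and 2, MONW-Lep replicates 1, 3, 5 and 6). The count above the negative controls was 0 in both tissues at the 90th and 99th percentile, in every array and in all omissions. The tissue comparison called 35 members in NW animals alone, with unpaired arrays (no replicate block) and in all omissions, 18 (6 higher, 12 lower, against 37.5% and 45.0% of all genes) with all 50 arrays quantile-normalized together and, in alternatives chosen after seeing the data, 25 on deposited values (84.3% of all genes) and 17 relative to the background sets (83.1% of all genes). The median difference reversed to -0.22 on deposited values and was 0.11 relative to the background sets, since each of these scales shifts all genes by the same amount. It also reversed with joint normalization, which is not such a shift, to -0.061, against -0.058 for all genes. The MONW versus NW interaction count of 0 became 2 with joint normalization, 1 on deposited values, 1 relative to the background sets, and ran from 0 to 3 with 1 animal left out. No share of all genes was computed for the interaction counts under any alternative.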
